A study of Canis lupus familiaris with 2 samples.

Results

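The 6 miRNAs described here are made mainly by white blood cells or induced in them by inflammation. They are cfa-miR-142, cfa-miR-146a, cfa-miR-146b, cfa-miR-150, cfa-miR-155 and cfa-miR-223 (cfa for the dog, left out below), chosen by their numbers from the 291 dog miRNAs of the chip, with letter and arm suffixes ignored. Serum was taken from male dogs at 2 months of age. The normal group was a pool of serum from 3 normal dogs, and the dystrophic group was a pool of serum from 3 affected dogs of CXMDJ, a dog model of Duchenne muscular dystrophy in which the X-linked disease leaves muscle without dystrophin. All dogs were born into the CXMDJ colony, and the labels give a phenotype but no genotype for each pool. RNA of each pool was labelled with Cy5 and hybridized to 1 one-color 3D-Gene chip, which carries 1 spot for each dog miRNA. With 1 array per condition there is no replicate error, and the conditions were not compared by a test.

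Serum holds RNA released by cells rather than the cells themselves, carried by vesicles or bound to protein. In blood, miR-142 is found across the haematopoietic lineages, miR-150 is abundant in mature lymphocytes and targets the transcription factor MYB, and miR-223 is abundant in granulocytes and monocytes and is also found in platelets. miR-155 rises when lymphocytes and macrophages are activated. miR-146a and miR-146b are induced through NF-kB and target TRAF6 and IRAK1 of the Toll-like receptor pathway, which gives a negative feedback on inflammation. In serum, more release from a cell type cannot be told apart from more cells of that type.

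The 6 genes did not lie together. The RefSeq gene table of the assembly UU_Cfam_GSD_1.0 served only to name genes and the genes around them. In it all 6 matched a gene by name and no other miRNA gene lay within 50 kb of any of them. MIR223 lay inside the span of the protein-coding gene VSIG4, and MIR146B inside that of a long non-coding RNA, LOC106557960. The 6 miRNAs therefore share no genomic cluster, and each was read from its own spot.

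A spot was taken as detected when its median intensity exceeded the mean of the blank spots, trimmed by 5% at each end, by more than 2 SD, unless the scanner software had marked it as unusable at every gain. This limit was 126 for the normal and 124 for the dystrophic array. By this rule miR-142, miR-150 and miR-223 were detected in both sera, and miR-146a, miR-146b and miR-155 in neither. Of all 291 dog miRNAs, 48.8% were detected on both arrays and 29.6% on neither. The limit lay close to the background. It was passed by 9.38% of the 1408 blank spots on the normal array and 8.59% on the dystrophic array. Larger shares of the other spots without a dog miRNA probe passed it. Of the 181 spots labelled No Probe, 26.5% did with normal serum and 23.8% with dystrophic serum. Among the 32 negative-control spots, 21 did with normal serum and 27 with dystrophic serum. Passing the limit alone therefore did not set a spot apart from such control spots. The scanner software marked the spots of all 6 miRNAs as usable at each of its 3 gains.

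miR-223, the miRNA of granulocytes and monocytes, had a spot that read 316 in normal and 252 in dystrophic serum. No blank spot, no spot labelled No Probe and no negative control was as bright on either array. The spot of miR-150, the lymphocyte miRNA, read 203 in normal and 195 in dystrophic serum. Almost no blank spot was as bright as that of miR-150, with 0 of the 1408 on the normal array and 1 on the dystrophic array. Both miRNAs were thus measured well above the blank level in both pools, and both read lower in dystrophic serum. The local background around the spot, given below, was brighter than the spot for miR-150 on the normal array and for miR-223 on the dystrophic array.

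miR-142 lay close to the limit in normal serum. Its spot read 130 there, 4.43 units above the limit, and 150 in dystrophic serum, 26.5 units above it. The share of blank spots with at least that reading was 4.97% on the normal array and 0.355% on the dystrophic array. Of the 181 spots labelled No Probe, 27 reached it in normal and 6 in dystrophic serum, as did 18 and 2 of the 32 negative-control spots. The normal value of miR-142 was therefore within the range of spots that carry no dog miRNA probe. Its spot sat in the corner of its block, next to a spot named QC-Probe that read 210 with normal and 245 with dystrophic serum, and the part of that neighbor in the value was not tested.

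**Figure D1:**
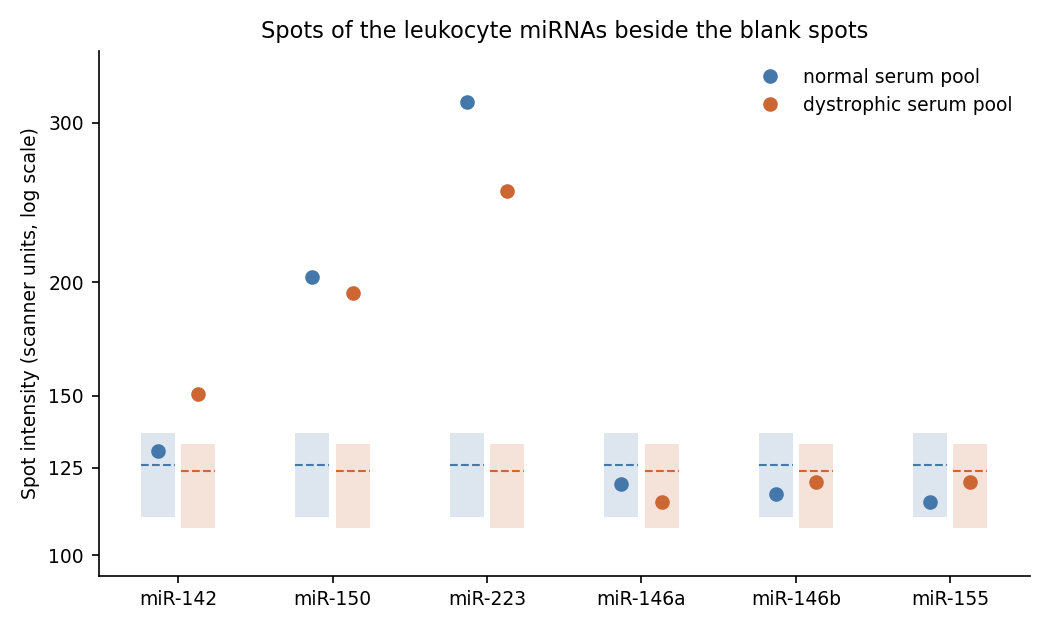
Median spot intensity in scanner units (log scale) of the 6 leukocyte miRNAs on the array of normal serum (blue) and of dystrophic serum (orange), 1 point per array. Shaded bands hold the central 95% of the blank spots of the same array and dashed lines mark its detection limit (126 and 124). miR-150 and miR-223 lay far above the bands, miR-142 inside the band for normal serum but above the one for dystrophic serum, and miR-146a, miR-146b and miR-155 below the limit on both arrays.

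The 3 undetected miRNAs are those tied to inflammatory activation. The spot of miR-155 read 115 in normal serum, where 77.2% of the blank spots reached that value, and 121 in dystrophic serum, where 17.5% did. For miR-146b the readings were 117 and 120, reached by 55.3% and 17.9% of the blank spots. For miR-146a they were 120 and 114, with 30.3% and 57.7%. None of these 6 readings was above the limit, so no fold change was computed. In normalized units the limits were 8.19 for normal and 6.81 for dystrophic serum. Levels below them were not measured, and their absence from serum is not shown.

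The call for miR-146b and miR-155 in dystrophic serum turned on where the blank level was taken. Their blocks of the dystrophic array were dark, with a mean of 112 ± 4.15 (SD, 44 blank spots) for miR-146b and 113 ± 4.38 (SD, 44 blank spots) for miR-155, compared with 116 over the whole array. When the blank mean of its own block was subtracted from each spot, both passed the limit in dystrophic serum and neither did in normal serum. The limit still came from the spread of the blank spots over the whole array, not from that of the block. The number detected on the dystrophic array went from 3 to 5. miR-146a stayed undetected on both arrays under each of the alternatives.

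For the 3 detected miRNAs, the blank level was subtracted and each array was multiplied by the factor that set the median of its detected dog miRNAs to 25. Ratios are given as dystrophic divided by normal serum. As an error, each spot was moved in opposite directions by the central 95% of the blank spots, combined with 2 times the coefficient of variation of replicated bright control spots (6.67%), and the lowest and highest ratio so reached are given as its range. The range covers spot noise and leaves out differences between dogs, RNA preparations and arrays. It also leaves out the choice of scaling. After scaling, the ratios of the bright control probes ran from 0.679 to 0.839, except for S-Probe6 at 1.76. Without scaling they ran from 0.854 to 1.06, except for S-Probe6 at 2.22.

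miR-223 was lower in dystrophic serum. Normalized signals of 206 in normal and 113 in dystrophic serum gave a ratio of 0.549, with a range from 0.394 to 0.752. The range of the scaled ratio lay wholly below 1, which was so for 7 of the 142 miRNAs detected on both arrays (4.93%), miR-223 among them. Of these 142, 12 had a lower ratio than miR-223 and 129 a higher one. Without scaling between the arrays the ratio of miR-223 was 0.690, and with scaling on bright control probes it was 0.662. The ratio of 0.549 did not reach the limit of 0.5 or less, which 5.63% of the miRNAs did. In 3 of the 14 alternatives that gave miR-223 a ratio, it did. On the dystrophic array the local background around its spot was 257, above the spot itself.

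miR-150 had a normalized signal of 87.9 in the normal and of 65.4 in the dystrophic pool. The ratio was 0.743, and its range from 0.479 to 1.17 included 1. The spot readings themselves were only 7.70 units apart, and without scaling between the arrays the ratio was 0.935. The blank spots of its block averaged 127 ± 15.3 (SD, 44 blank spots) on the normal array, brighter and more uneven than the 118 of the whole array, and 112 ± 3.77 (SD, 44 blank spots) on the dystrophic array. The local background around the spot was 246 on the normal array, above the spot itself, and 128 on the dystrophic array. With the blank spots of its block the ratio was 0.959, the nearest to 1 of any alternative. For miR-223 the blank spots of the block were even, at 116 and 117, and the same alternative gave 0.596. A difference in miR-150 was therefore not detectable beyond spot noise on these arrays.

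miR-142 was the only one of the 3 with a ratio above 1. A normalized signal of 12.8 for the normal pool stood against 28.7 for the dystrophic pool, and the ratio was 2.24. The range began at 0.676 and had no upper limit, because the normal signal could be 0 within the spread of the blank spots. A range wholly above 1 was found for 16.9% of the 142 miRNAs, and for 0 of the 3 members. miR-142 was the 1 member above 2-fold among the 3 detected, whereas 13.4% of all miRNAs detected on both arrays were above 2-fold. None of the 3 was at 0.5-fold or less. Without background subtraction the ratio of miR-142 was 1.12, and of the 11 alternatives that gave miR-142 a ratio, 7 put it above 2-fold. Those 7 include the deposited table and signals under the limit set to the limit. Both gave 2.24 and repeat the main value by construction. No ratio was obtained with untrimmed blank spots, local background subtracted, a minimum signal of 25 or the surrounding spots subtracted.

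**Figure D2:**
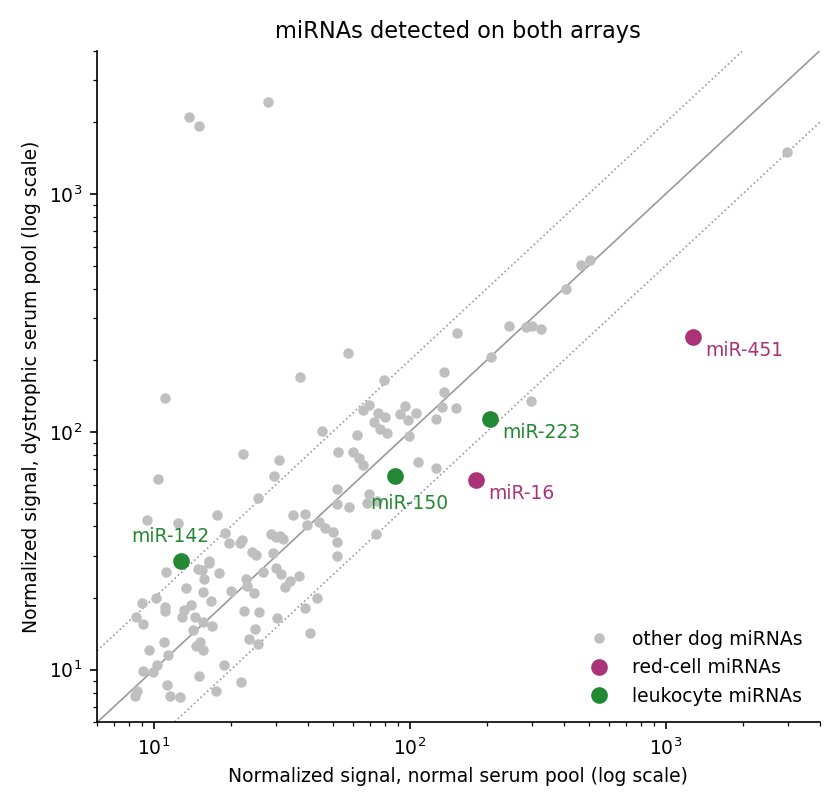
Normalized signal of the 142 dog miRNAs detected on both arrays, normal serum pool against dystrophic serum pool (log scales). Green points are the leukocyte miRNAs, purple points the red-cell miRNAs miR-451 and miR-16 and grey points all others. The solid line marks a ratio of 1 and the dotted lines ratios of 2 and 0.5. miR-223 and miR-150 lay below the solid line, at ratios of 0.549 and 0.743, and miR-142 lay above the upper dotted line at a low signal.

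A ratio depends on the factors used to scale the arrays, but the order of the members does not. Relative to the median over the 142 miRNAs (a log2 ratio of 0.13), miR-142 was 1.04 higher on the log2 scale, miR-150 was at -0.56 and miR-223 at -0.99. The ratio of miR-142 divided by that of miR-223 was 4.08, with a range from 0.899 upward. It was 3.01 for miR-142 over miR-150, with a range from 0.579 upward. That of miR-150 divided by that of miR-223 was 1.35, with a range from 0.637 to 2.96. Each of these ranges sets the lowest ratio of 1 miRNA against the highest of the other, and the reverse. All spots are thus at their outer limits at once, which makes the ranges wide. All 3 ranges include 1, and ranges this wide cannot decide whether the 3 miRNAs changed unequally. The 3 kept this order under each alternative that gave all of them a ratio. Alternatives that change only the scaling factors could not alter it, so they add nothing on this point.

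**Figure D3:**
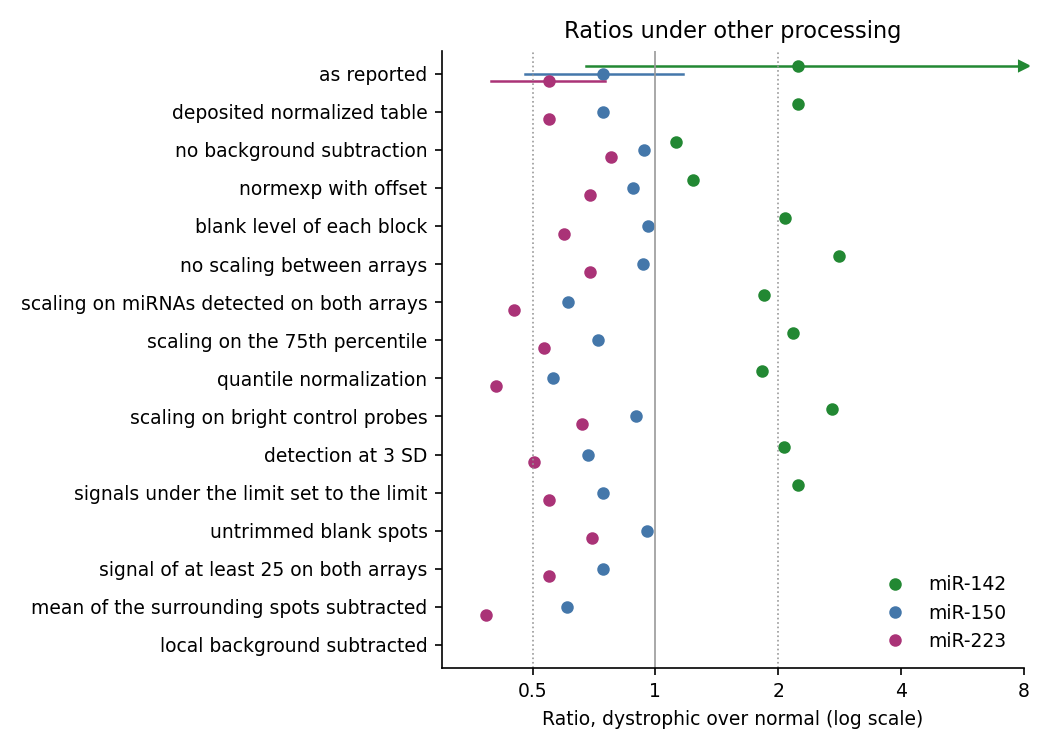
Ratio of dystrophic over normal serum (log scale) for miR-142 (green), miR-150 (blue) and miR-223 (purple) as reported and under each alternative. Horizontal lines in the top row are the ranges from spot noise, with an arrow where there is no upper limit. miR-223 and miR-150 stayed below 1 and miR-142 above 1 wherever a ratio was obtained, while miR-142 crossed the dotted line at 2 and miR-223 the dotted line at 0.5 with the processing.

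Among the miRNAs detected on both arrays, those whose pair of signals was most like that of a member were found by their Euclidean distance in log2 normalized signal over the 2 arrays. They were miR-138a and miR-500 for miR-142 (distances of 0.25 and 0.25), miR-25 and miR-93 for miR-150 (0.35 and 0.42), and miR-1837 and miR-140 for miR-223 (0.47 and 0.59). The ratios of miR-25 and miR-93 were 0.696 and 0.688, and those of miR-1837 and miR-140 were 0.834 and 0.454.

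A wider list of 35 miRNAs known from immune cells and inflammation, of which 34 were on the chip, was read beside the members. It gave 22 detected on both arrays, with 0 above 2-fold and 3 at 0.5-fold or less, where the shares over all miRNAs detected on both arrays were 13.4% and 5.63%. miR-34a of this list was left out of the 22, since its spot read 204 with dystrophic serum but was marked as unusable. The median ratio was 0.886, compared with 1.09 over all miRNAs detected on both arrays, and it was above 1 in 5 of 15 alternatives, with values from 0.657 with quantile normalization to 2.58 with local background subtracted. The 3 were miR-20a with a ratio of 0.348 and miR-106a with 0.459, both of the miR-17 family that limits monocyte differentiation, and miR-21, which is induced in activated macrophages and in many other cells, with 0.403. The ranges of all 3 reached above 1. The members of the list with a signal of at least 100 were miR-24 (ratio 1.07), miR-92a (0.835) and miR-221 (0.555). The range for miR-221, from 0.368 to 0.811, lay below 1 as that of miR-223 did.

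Among markers of other blood cells, the list for red cells held 4 miRNAs, of which 3 were on the chip. The 2 that were detected, miR-451 and miR-16, were also lower in dystrophic serum. On the chip, miR-451 had normalized signals of 1276 and 250.0 in the normal and the dystrophic pool, respectively, with a ratio of 0.196 (range 0.148 to 0.257). Those of miR-16 were 182 and 62.7, with a ratio of 0.346 (range 0.225 to 0.489), while miR-144 was not detected on either array. The signals of this list summed to 1457 for normal and 313 for dystrophic serum, most of each from the single spot of miR-451. In the list of platelets and endothelium, which holds miR-223 itself, 4 of 5 markers were detected on both arrays, with ratios from 0.549 for miR-223 to 1.33 for miR-197. The summed signal, miR-223 included, was 801 and 754. Of the others, miR-24 (ratio 1.07) and miR-197 read higher and miR-191 (0.756) lower in dystrophic serum. miR-24 and miR-191 are also in the wider immune list. The endothelial marker of the platelet and endothelium list, miR-126, was not detected on either array. The part of red-cell and platelet RNA in the values of miR-223 and miR-150 was not tested. The liver marker miR-122 was near the limit in both sera, with signals of 8.63 and 8.14.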

How the data were processed

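Serum miRNAs were measured on 2 one-color arrays, 1 per pool. The authors deposited the scanner output, with the unnormalized median intensity of every spot, and their normalized intensities, given to 1 decimal. Images were read with 3D-Gene Extraction software, and its settings are not given in the sources used here. From the scanner values the blank level was subtracted, detection was set and each array was scaled as described in the report. The recomputed values had the same detection entry as the deposited table in 582 of 582 cases and differed from it by at most 0.0498 units.

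Groups were taken from the labels. The members and lists were chosen with earlier results of these data known. The miRNAs named were the members, the 2 most like each detected member, members of the wider list past a 2-fold or 0.5-fold limit or with a signal of at least 100, and the red-cell markers detected on both arrays. Others named, among them miR-34a, miR-122, miR-126, miR-144 and miR-197, were chosen after their values were seen. The coefficient of variation came from 10 control probes with 8 spots each, with a net signal of at least 5 times the limit above background. The number of arrays limits the precision. Alternatives for background, scaling, detection, dim signals and the table used numbered 14, and 1 more was chosen after seeing the data. The recovery of known ratios was tested on simulated data, for bright signals and without scaling between the arrays. Scaling, the ranges and dim signals were not tested in this way. Python 3.11.15, numpy 2.4.6, pandas 2.3.3, R 4.3.3 and limma 3.58.1 (normexp with an offset of 50) were used.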

Additional observations from a re-analysis of the deposited data

Results flagged for a closer look

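The scanner output also gives a local background around each spot, which the comparisons above do not use. For miR-150 on the normal array this background was 246, above the reading of 203 of the spot itself, and for miR-223 on the dystrophic array it was 257, above the reading of 252. Both were brighter than the local background of any of the 1408 blank spots, whose highest value was 146 for the normal array and 152 for the dystrophic array. A local background above the spot was found for 43 of the 3200 spots on the normal array, 8 of them dog miRNAs, and for 24 on the dystrophic array, 6 of them dog miRNAs. On the other array the local background was below the spot for both, with 128 around miR-150 in dystrophic and 224 around miR-223 in normal serum. The value of 224 was again above that of any blank spot. The part of this uneven background in the ratios of 0.743 and 0.549 was not tested.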

How the results depend on the processing

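The ratio of miR-150 ran from 0.561 to 0.959 and stayed below 1 in the 14 alternatives that gave one, and that of miR-142 ran from 1.12 to 2.82 and stayed above 1 in 11. That of miR-223 was below 1 in 14, and left its range without background subtraction (0.777) and when the mean of the surrounding spots was subtracted (0.385), an alternative chosen after seeing the data. Setting signals under the limit to the limit could not move the ratio of a detected miRNA. Nor could a minimum signal of 25 where it gave a ratio. The deposited table rests on the same signals, so these alternatives add nothing to the counts. The number above 2-fold was 0 without background subtraction, with normexp, with scaling on miRNAs detected on both arrays (miR-142 at 1.84) and with quantile normalization (1.82). It was also 0 where miR-142 gave no ratio, with untrimmed blank spots, a minimum signal of 25 and the surrounding spots. The number at 0.5-fold or less was 1, miR-223, with scaling on miRNAs detected on both arrays (0.451), quantile normalization (0.408) and the surrounding spots. Subtracting the local background left 1 member detected on each array, miR-223 in normal and miR-150 in dystrophic serum, and no ratio, while the blank level of each block gave 5 on the dystrophic array. The median ratio of the red-cell list, 0.271, was 0.470 without background subtraction, 0.384 with normexp and 0.164 with the surrounding spots. That of the muscle list, 108, was 18.8 and 35.2 under the first and the second of these. That of the platelet and endothelium list, 0.913, was 3.03 with local background and 0.503 with quantile normalization. That of the liver list, 0.916, ran from 0.586 with the surrounding spots to 1.15 without scaling. The causes were not tested, except that a background or an offset of 50 left in both signals draws a ratio toward 1 by construction.

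Over all miRNAs, 19 were above 2-fold and 8 at 0.5-fold or less, compared with 34 and 3 without scaling, 12 and 19 with scaling on miRNAs detected on both arrays, 10 and 22 with quantile normalization, 31 and 4 with bright control probes, and 6 and 1 without background subtraction. Without scaling the median log2 ratio moved by 0.33, and with quantile normalization by -0.39. No paired analysis was possible because there is 1 array of each condition.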
